A study of Mus musculus with 4 samples.

Results

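The histone H3K4 methylases and demethylases described here are 10 genes taken by their symbols. They are Kmt2a, Kmt2b, Kmt2c, Kmt2d and Kmt2e of the KMT2 (MLL) family, Setd1a and Setd1b, and the demethylases Kdm5a, Kdm5b and Kdm1a (LSD1). Each symbol matched 1 gene identifier, so the group makes up 10 of 36918 counted genes, and all 10 passed the filter on low counts that left 14361 genes for testing.

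The study sequenced RNA bound to chromatin (ChAR-seq), a fraction rich in nascent transcripts, in mouse embryonic stem cells (mESCs) to learn which genes respond to acute loss of ZBTB21, one of the ZBTB zinc finger proteins that bind DNA. The cells came from an mESC line with OsTIR1, the auxin receptor protein of rice, in which the endogenous Zbtb21 gene had been tagged at its end with an auxin-inducible degron and GFP, and cell lines were obtained as homogeneous clones. In the degron group, 2 libraries were made after 24 h of doxycycline at 1 μg/ml and then 6 h of the auxin IAA (indole acetic acid) at 500 μM. The untreated group also had 2 libraries, and whether its cells received doxycycline is not stated, so loss of ZBTB21, IAA and possibly doxycycline cannot be told apart in the comparison. Whether the libraries of a group came from separate cultures is not stated either, so the p-values reflect the spread among these particular samples alone, part or all of which may be technical.

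Methylation of lysine 4 on histone H3 marks active regulatory DNA, with trimethylation mostly at promoters and monomethylation mostly at enhancers. KMT2A and KMT2B (the MLL1 and MLL2 proteins), KMT2C and KMT2D (MLL3 and MLL4) and SETD1A and SETD1B form paralogous pairs, each built on a common core of WDR5, RBBP5, ASH2L and DPY30. The KDM5 enzymes remove trimethyl and dimethyl marks, and KDM1A removes dimethyl and monomethyl marks, so the amount of the mark depends on writers and erasers together. In embryonic stem cells KMT2B is known for trimethylation at promoters that also carry repressive marks, and the SETD1A complex for bulk trimethylation.

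Total counts ran from 4262382 to 6479842 per library, and 1 of the 2 degron libraries, replicate 1, was the deepest. Levels are given as CPM, the count scaled by TMM library size, and in the shallowest library the 3 counts that a count of 0 still allows correspond to 0.715 CPM, for counting error only. The 8 stem cell markers summed to 2125 and 2142 CPM in the untreated libraries and 2720 and 2682 CPM in the degron libraries. Of these markers 5 were higher and 0 lower in edgeR's test. Zfp42 was, however, lower with length-adjusted scaling, which removes a trend with gene length from each library (log2 fold change of -0.22, adjusted p of 0.0012). Pou5f1, 1 of the 5, was at 0.41 and with that scaling at 0.18 (adjusted p of 0.0334). With GC content removed as well, Pou5f1 was at 0.16 and missed the threshold in edgeR's test (0.0785). Sox2 was at 0 in all 4 libraries and lies wholly within another gene on the same strand, and Dppa5a reached no more than 1 count. The summed markers of fibroblasts (feeder cells) were at 20.97 to 25.3 CPM in the untreated libraries and 16.5 to 17.4 CPM in the degron libraries, with no overlap. Those of endoderm were at 21.9 to 27.6 and 16.1 to 19.1 CPM in the same order, and those of neural progenitors at 2.86 to 4.67 and 1.98 to 2.24 CPM, with Sox1 and Neurod1 at 0 in all 4. Of these 3 lists, edgeR called the endoderm gene Gata6 (log2 fold change of -1.23, adjusted p of 0.0385) and the neural gene Pax6 (-1.004, 0.0448) lower, and none higher. Both calls rest on few counts, 6 to 13 per library for Gata6 and 10 to 21 for Pax6. With the length-adjusted scaling both missed the threshold in edgeR's test (0.060 and 0.0625), while the fibroblast gene Thy1 was lower (-0.85, 0.0290). The part of these marker shifts in the values below was not tested. In bulk RNA, fewer cells of a type and less RNA per cell cannot be told apart. Zbtb21 itself had counts of 2 and 0 in the untreated and 0 and 0 in the degron libraries, overlaps C2cd2, transcribed on the same strand, over 99.9% of its length, and so is no check of the labels. Counts covered introns as well as exons, and libraries were scaled with TMM, a trimmed mean that sets the typical gene near no change.

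Across the 10 genes, chromatin-associated RNA of Kmt2b, Kmt2d, Setd1a and Setd1b was higher in the degron libraries and that of Kmt2c, Kmt2e and Kdm1a was lower, by edgeR's quasi-likelihood test with a threshold of 0.05 on the p-value after Benjamini-Hochberg adjustment. Kmt2a, Kdm5a and Kdm5b did not pass the test. Of all tested genes, 20.3% were higher, 19.8% were lower and 40.2% passed in either direction, against 4, 3 and 7 of these 10. DESeq2 called 4 of the 10 higher and 2 lower, where 13.6% and 11.8% of the 10766 genes it tested were called. Each of the 4 higher genes had a log2 fold change of 0.5 or more, and 7.6% of all tested genes were called higher with a change of that size. The values of both groups did not overlap in 7 of the 10 genes, with degron above untreated in 4 and below in 3. For all tested genes these shares were 34.4% above and 34.6% below. The median log2 fold change of the 10 genes was 0.01, against -0.00075 over all tested genes.

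**Figure D1:**
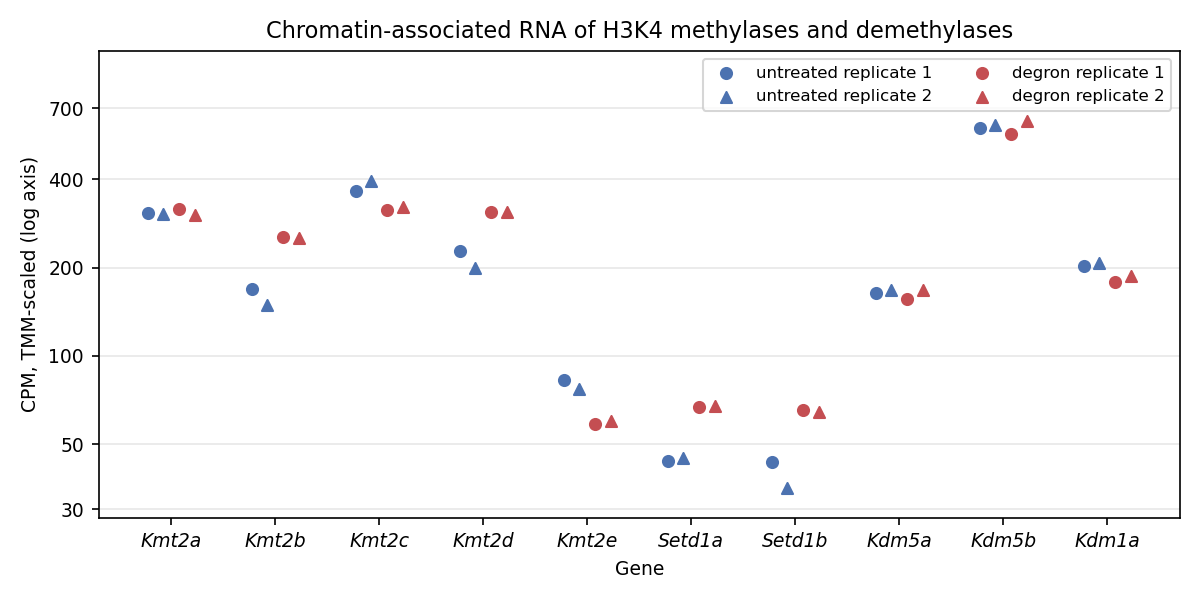
CPM (TMM-scaled, log axis) of the 10 genes in each of the 4 libraries, with circles for replicate 1 and triangles for replicate 2. For Kmt2b, Kmt2d, Setd1a and Setd1b both red degron points lie above both blue untreated points, for Kmt2c, Kmt2e and Kdm1a below them, and Kdm5b reaches the highest level, 634 CPM.

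The genes differ in structure in a way that runs with these calls. Gene length went with the change across all genes: the Spearman rho of log2 fold change with length was -0.47 over the 14351 tested genes with an annotated length. These genes are not independent replicates and share the same 4 libraries. The 4 higher genes are the shortest of the 10, from 19.9 kb for Kmt2b to 39.5 kb for Kmt2d, and the other 6 run from 52.2 kb for Kdm1a to 227 kb for Kmt2c. They also have the highest GC content in their longest transcript, 57.0% to 59.1% against 43.3% to 51.7% in the rest, where the median of tested genes is 49.9%. Introns make up 49.6% to 71.0% of the 4 higher genes and 78.0% to 91.1% of the others, where the median is 82.6%. The part of intron share in the result was not tested, and scalings that remove length and GC are given below.

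All 4 higher genes belong to the length class of 10 to 40 kb, in which 25.8% of 5776 tested genes were higher, 9.16% were lower and the median log2 fold change was 0.07. The upper quartile of that class was 0.30, and the 4 genes lay between 0.53 and 0.71. Kmt2a, Kmt2e, Kdm5a, Kdm5b and Kdm1a belong to the class of 40 to 100 kb, in which 11.6% were higher, 32.5% were lower and the median was -0.15. Kmt2c is the only gene of the 10 above 100 kb, where 3.39% of 2095 genes were higher, 59.8% were lower and the median was -0.34. The log2 fold changes of Kmt2c and Kdm1a, -0.26 and -0.17, lay within the quartiles of their length classes, and that of Kmt2e, -0.44, lay below its class's lower quartile of -0.35.

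**Figure D2:**
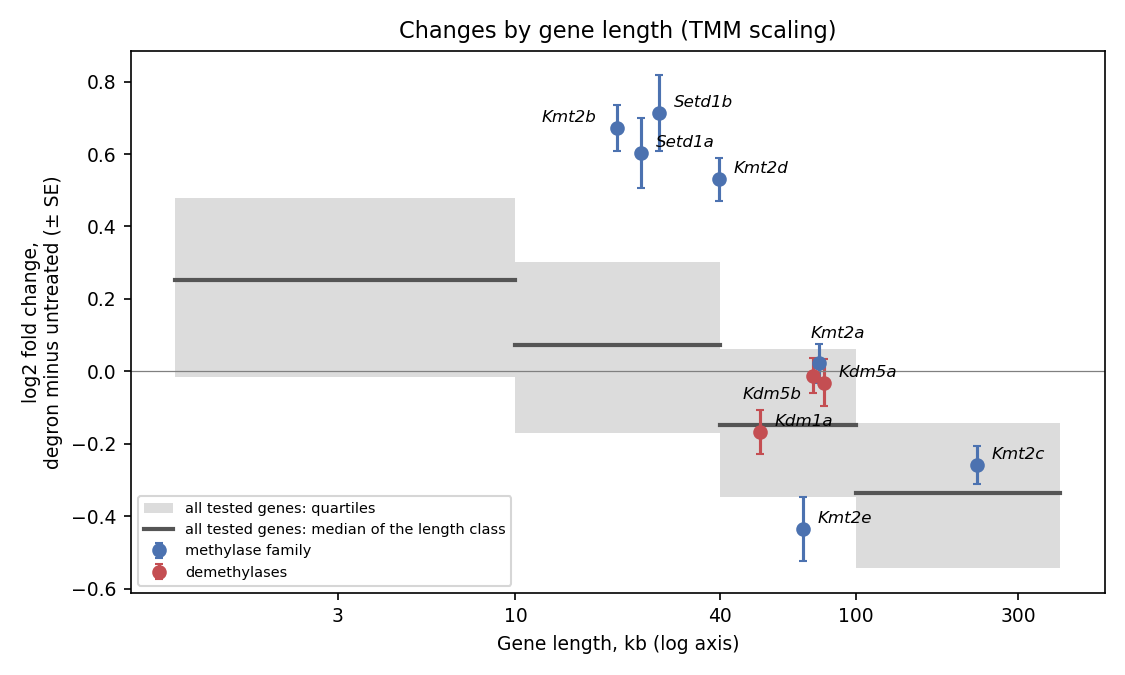
Log2 fold change (degron minus untreated, ± SE) of the 10 genes against gene length in kb on a log axis, with grey boxes for the quartiles and dark lines for the median of all tested genes in 4 length classes. Kmt2b, Setd1a, Setd1b and Kmt2d sit above the box of their class, whose upper edge is 0.30, Kmt2e sits below its box, and the other 5 lie within theirs.

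Because of this trend, each gene was also fitted with other scalings. GC content in them was that of the longest transcript without introns, although the counts cover introns. The first scaling removes, in each library, the smooth dependence on gene length (length-adjusted), and the second removes length and GC content together. With the first, 2569 genes were higher and 1419 lower over all genes (17.9% and 9.89%) in place of 2921 and 2845, and with the second 2290 and 1226 (16.0% and 8.54%). Among the 10 genes, 7 were then higher and 1 lower with the length-adjusted scaling, and 7 higher and 0 lower with length and GC removed. The median of the 10 genes was 0.21 and 0.24 under these scalings, against 0.03 and 0.03 over all tested genes. The 4 genes named first as higher kept that call in both, while Kmt2a, Kdm5a and Kdm5b joined them and Kmt2c and Kdm1a lost their lower call.

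**Figure D3:**
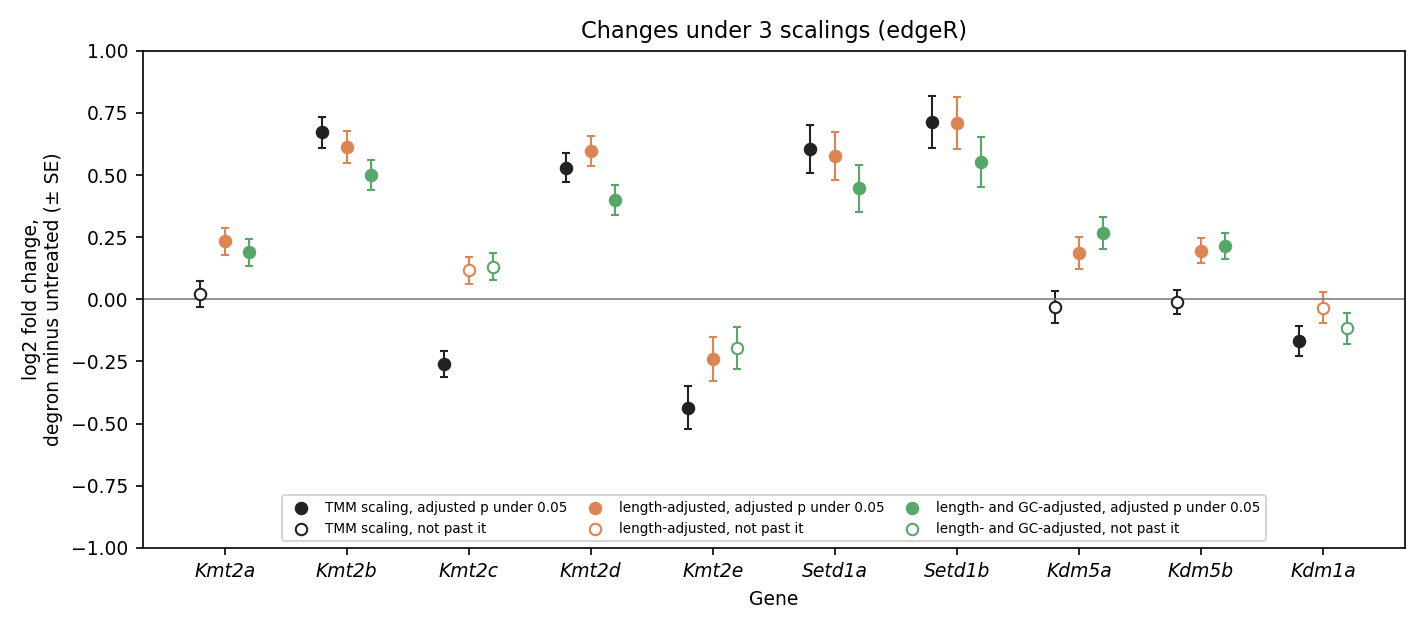
Log2 fold change (degron minus untreated, ± SE) of each gene under TMM scaling (black), length-adjusted scaling (orange) and length- and GC-adjusted scaling (green), filled where the adjusted p was under 0.05. Kmt2b, Kmt2d, Setd1a and Setd1b are filled above 0 under all 3 scalings, Kmt2c turns from -0.26 to 0.12 and 0.13, Kdm5a and Kdm5b turn from just under 0 to filled points above it, and Kdm1a stays below 0 but is filled only under TMM.

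The bases just upstream of the start are shown for Kmt2d, which was higher, and for Kmt2c and Kdm1a, which were lower under TMM scaling, so that the promoter of the one can be read beside the others, its paralog included. They are the 250 bases before the start in the RefSeq promoter table (GRCm38.p6, the mm10 build), which matched 6 of the 10 genes, and they are printed on the strand of the gene from 5′ to 3′. Capitals mark matches on either strand to GGGCGG (the GC box bound by SP factors, CCGCCC on the other strand) and CCAAT (the box bound by NF-Y, ATTGG on the other strand). CACGTG (the E-box), CCGGAA (an ETS core) and TATAAA were searched in the same way and had no match in these 3 windows. Where matches overlap, the capitals run on.
Kmt2d, chr15:98871206-98871455, minus strand: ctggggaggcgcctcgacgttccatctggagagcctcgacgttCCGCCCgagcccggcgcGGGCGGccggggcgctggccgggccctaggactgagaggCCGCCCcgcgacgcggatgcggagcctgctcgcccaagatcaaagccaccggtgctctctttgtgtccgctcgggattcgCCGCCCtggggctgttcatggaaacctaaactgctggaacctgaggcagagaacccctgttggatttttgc
Kmt2c, chr5:25498784-25499033, minus strand: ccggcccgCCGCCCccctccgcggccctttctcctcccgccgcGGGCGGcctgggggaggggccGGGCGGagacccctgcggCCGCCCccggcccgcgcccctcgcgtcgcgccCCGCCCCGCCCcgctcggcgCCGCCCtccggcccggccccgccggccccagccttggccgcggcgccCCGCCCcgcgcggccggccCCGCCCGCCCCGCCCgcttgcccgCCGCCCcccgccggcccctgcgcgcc
Kdm1a, chr4:136602724-136602973, minus strand: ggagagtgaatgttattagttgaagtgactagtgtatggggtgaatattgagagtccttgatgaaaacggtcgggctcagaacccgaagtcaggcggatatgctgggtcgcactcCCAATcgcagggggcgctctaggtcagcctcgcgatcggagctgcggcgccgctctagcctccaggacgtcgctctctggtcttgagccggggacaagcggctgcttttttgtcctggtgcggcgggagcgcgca

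GGGCGG occurred 4 times upstream of Kmt2d, a gene that rose, and 12 times upstream of Kmt2c, its paralog, and not at all upstream of Kdm1a. The RefSeq window of Setd1a, another gene that rose, held none either. That window, chr7:127777139-127777388, lies inside the gene as annotated here, which starts at 127776670, so it is not upstream of that start. Of 32851 promoters of the same length, 32.7% held it, as did 4 of the 6 matched genes. CCAAT was found once, upstream of Kdm1a, and in 33.8% of all promoters. The 3 windows held 26, 48 and 21 CpG in the order printed, against a median of 6 over all promoters. The GC box thus stood on both sides of the calls under TMM scaling, with more matches at Kmt2c, which was lower under that scaling only. The window of Kmt2c had a GC content of 91.6% and that of Kmt2d 67.6%. The part of GC content in the number of matches was not tested. These matches describe letters in a window and were not set against binding.

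Kmt2b (ENSMUSG00000006307, chr7:30568858-30588726, minus strand, 37 exons in its longest transcript) and Kmt2a (ENSMUSG00000002028, chr9:44803355-44881296, minus strand, 36 exons) encode the MLL2 and MLL1 methylases, which share menin as a subunit. Kmt2b had 169 and 149 CPM in the untreated and 254 and 253 CPM in the degron libraries. Both degron values lay far above both untreated values and close to each other. The means were 159 ± 14.4 and 254 ± 1.06 CPM (SD, n = 2), a 1.59-fold rise with a log2 fold change of 0.67 ± 0.06 (SE) and an adjusted p of 1.28e-11 in edgeR's quasi-likelihood test. With length and GC removed it was 0.50.

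Kmt2a had 307 and 304 CPM in the untreated and 317 and 303 CPM in the degron libraries. The groups overlapped, since degron replicate 2 lay below both untreated libraries. Its log2 fold change was 0.02 ± 0.05 (SE) with an edgeR adjusted p of 0.775. With the length-adjusted scaling the value was 0.23 and the adjusted p was 0.00088 in the same edgeR test, so the call for Kmt2a depends on the scaling. The ratio of Kmt2b to Kmt2a counts within a library does not depend on the scaling between libraries, but it carries the trend with length, since Kmt2a is far longer (77.9 kb against 19.9 kb). It was 0.551 and 0.489 in the untreated and 0.802 and 0.835 in the degron libraries. Both degron ratios were higher, and an exact permutation test (two-sided) gave p = 0.333, the smallest that 2 against 2 libraries allow. Their length-adjusted log2 fold changes were 0.61 for Kmt2b and 0.23 for Kmt2a.

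Kmt2d (ENSMUSG00000048154, chr15:98831669-98871204, minus strand, 55 exons) and Kmt2c (ENSMUSG00000038056, chr5:25271798-25498783, minus strand, 59 exons) encode the main enhancer monomethylases, MLL4 and MLL3, and moved apart under TMM scaling. Kmt2d had 229 and 199 CPM in the untreated and 310 and 309 CPM in the degron libraries. All degron values were above all untreated ones, and the 2 degron libraries were nearly equal. The rise was 1.44-fold, from 214 ± 20.8 to 309 ± 0.28 CPM (SD, n = 2), with a log2 fold change of 0.53 ± 0.06 (SE) and an adjusted p of 1.14e-09 by edgeR's quasi-likelihood test.

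Kmt2c had 366 and 395 CPM in the untreated and 314 and 323 CPM in the degron libraries. The degron values lay below the untreated ones without overlap, and the log2 fold change was -0.26 ± 0.05 (SE) with an edgeR adjusted p of 9.96e-05. With the length-adjusted scaling the sign turned, to 0.12 with an adjusted p of 0.106 in the edgeR test, and with length and GC removed it was 0.13 with an adjusted p of 0.0784. The fall of Kmt2c is thus a value relative to the typical gene and not to genes of its length. The ratio of Kmt2d to Kmt2c counts within a library was 0.624 and 0.504 in the untreated and 0.987 and 0.958 in the degron libraries. The paralogs were at near-equal counts in both degron libraries and far from equal in both untreated ones, with p = 0.333 in the exact permutation test, again the smallest possible. This pair too differs in length, 39.5 kb against 227 kb, and with the length-adjusted scaling the log2 fold changes were 0.60 for Kmt2d and 0.12 for Kmt2c.

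Setd1a (ENSMUSG00000042308, chr7:127776670-127800122, plus strand, 19 exons) and Setd1b (ENSMUSG00000038384, chr5:123142193-123168629, plus strand, 17 exons) encode the catalytic subunits of the SET1 (COMPASS) complexes. Both rose, and by about the same amount. Setd1a had 43.8 and 44.8 CPM in the untreated and 67.0 and 67.5 CPM in the degron libraries, with no overlap and little spread within a group. Its log2 fold change was 0.60 ± 0.10 (SE), with an adjusted p of 2.38e-06 in edgeR's quasi-likelihood test. The predicted gene Gm49388 covers 61.9% of Setd1a on the same strand. Of protein-coding genes covered over at least 99% in this way, 88.5% had no count. Reads from the shared bases may therefore be missing from the count of Setd1a, so its level is uncertain and may be understated.

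Setd1b had 43.5 and 35.3 CPM in the untreated and 65.5 and 64.3 CPM in the degron libraries. Untreated replicate 2 was the lowest, and both degron values lay above both untreated ones. The log2 fold change was 0.71 ± 0.10 (SE), the largest of the 10 genes, with an edgeR adjusted p of 4.05e-07. Leaving out 1 library at a time moved it between 0.59 and 0.89. The ratio of Setd1b to Setd1a counts was 0.995 and 0.787 in the untreated and 0.977 and 0.952 in the degron libraries. The groups overlapped in this ratio, and the exact permutation test gave p = 1. These paralogs are of similar length, 26.4 kb and 23.5 kb.

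Kmt2e (ENSMUSG00000029004, chr5:23434441-23504235, plus strand, 27 exons) encodes MLL5, which belongs to the family by name and is not known to methylate H3K4. It had 83.0 and 77.0 CPM in the untreated and 58.6 and 60.0 CPM in the degron libraries. Both degron values lay below both untreated ones, from a mean of 80.0 ± 4.31 to 59.3 ± 1.00 CPM (SD, n = 2). The log2 fold change was -0.44 ± 0.09 (SE) with an adjusted p of 1.01e-04 in edgeR's quasi-likelihood test. The fall was smaller once length was removed, -0.24 with an edgeR adjusted p of 0.0349, and it missed the threshold with length and GC removed, at -0.20 and 0.0895. With the length-adjusted scaling the adjusted p in edgeR's test also missed the threshold with untreated replicate 1 left out (0.311), and likewise for degron replicate 1 (0.191) and degron replicate 2 (0.0692). Kmt2e moved in the opposite direction to Kmt2b, Kmt2d, Setd1a and Setd1b, and it was the lowest of the 10 genes per kb.

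The demethylases moved little. Kdm5b (ENSMUSG00000042207, chr1:134560171-134635285, plus strand, 27 exons) had 598 and 616 CPM in the untreated and 572 and 634 CPM in the degron libraries. The untreated values lay between the degron ones, with a log2 fold change of -0.01 ± 0.05 (SE) and an edgeR adjusted p of 0.869. Kdm5a (ENSMUSG00000030180, chr6:120364124-120444574, plus strand, 28 exons), its paralog, had 163 and 167 CPM in the untreated and 157 and 167 CPM in the degron libraries. The groups overlapped here too, with a log2 fold change of -0.03 ± 0.06 (SE) and an edgeR adjusted p of 0.735. With the length-adjusted scaling both turned to positive and passed the threshold in edgeR's test, Kdm5b at 0.20 with an adjusted p of 0.0027 and Kdm5a at 0.19 with an adjusted p of 0.0305. Under that scaling Kdm5b missed the threshold without degron replicate 2 (0.118), and Kdm5a without untreated replicate 1 (0.143), untreated replicate 2 (0.0670) or degron replicate 2 (0.200). The ratio of Kdm5b to Kdm5a counts hardly differed between libraries, at 3.66 and 3.68 in the untreated and 3.65 and 3.79 in the degron libraries, with p = 1 in the exact permutation test, and these paralogs are 75.1 kb and 80.5 kb long.

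Kdm1a (ENSMUSG00000036940, chr4:136550540-136602723, minus strand, 20 exons) encodes LSD1, the flavin-dependent demethylase that works with the CoREST proteins. It had 203 and 208 CPM in the untreated and 179 and 188 CPM in the degron libraries, with no overlap. The log2 fold change was -0.17 ± 0.06 (SE) with an adjusted p of 0.0263 in edgeR's quasi-likelihood test. The call was lost without untreated replicate 1 (adjusted p of 0.0667), untreated replicate 2 (0.151) or degron replicate 1 (0.244) in edgeR, with total counts (0.05001), without a filter (0.107) and with DESeq2 (0.210). With the length-adjusted scaling the value was -0.03 with an edgeR adjusted p of 0.725, and with length and GC removed it was -0.12 (0.171).

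Summed over the genes of each class, the ratio of methylase counts (the 5 Kmt2 genes and both Setd1 genes) to demethylase counts was 1.29 and 1.21 in the untreated and 1.53 and 1.39 in the degron libraries. Both degron ratios were above both untreated ones, by 0.22 on the log2 scale, and the exact permutation test gave p = 0.333. The methylase sum includes Kmt2e, which is not known to methylate H3K4. Kmt2e held 6.69% and 6.39% of that sum in the untreated and 4.23% and 4.35% in the degron libraries, and a ratio without it was not computed. Within the methylase counts, Kmt2c held the largest share of the untreated libraries, 29.5% and 32.8%, and 22.6% and 23.4% of the degron libraries. The share of Kmt2b went from 13.6% and 12.3% to 18.4% and 18.3%, and that of Kmt2d from 18.4% and 16.5% to 22.3% and 22.4%. Kmt2a, Kmt2c and Kmt2d held 22.9%, 22.6% and 22.3% in degron replicate 1. In degron replicate 2 they held 21.9%, 23.4% and 22.4%, so their order differed between these libraries. The counts of the 4 largest genes were therefore closer to each other in the degron libraries. A ratio of counts between genes reflects their lengths, and a change of it carries the trend with length, whose part in the class ratio was not tested.

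**Figure D4:**
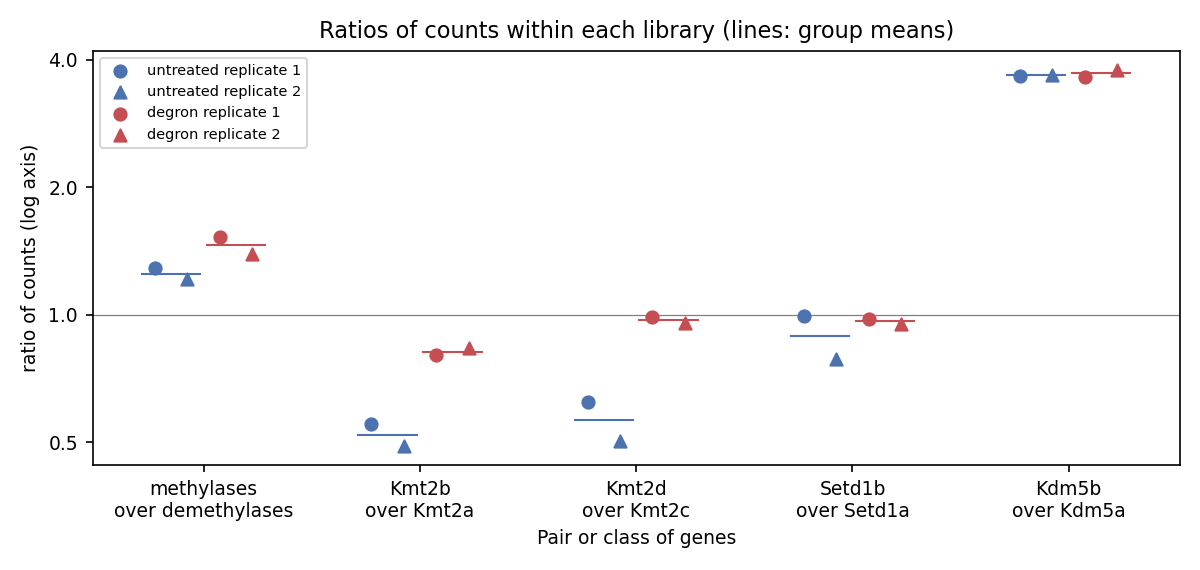
Ratios of counts within each library on a log axis, for methylases over demethylases and for the 4 paralog pairs, with circles for replicate 1, triangles for replicate 2 and lines for the group means. The degron points lie above the untreated points for the class ratio, for Kmt2b over Kmt2a (means of 0.520 and 0.819) and for Kmt2d over Kmt2c (0.564 and 0.973), and they overlap for Setd1b over Setd1a and Kdm5b over Kdm5a.

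Levels of different genes were compared as CPM per kb of counted gene body, a scale on which introns weigh as much as exons. In the untreated libraries Kmt2b and Kdm5b had the highest level, 8.12 ± 0.74 and 8.12 ± 0.17 CPM per kb (SD, n = 2), and did not differ beyond their spread. They were followed by Kmt2d at 5.45 ± 0.53, by Kdm1a at 3.96 ± 0.06 and by Kmt2a at 3.94 ± 0.02, the last 2 of which overlapped. Below them came Kdm5a at 2.06, Setd1a at 1.91, Kmt2c at 1.68, Setd1b at 1.51 and Kmt2e at 1.15 CPM per kb, where Kmt2c and Setd1b overlapped. Kmt2c was thus high in counts through its length and low per kb. Per kb not shared with Gm49388, Setd1a would stand at 5.02, so its place in the order is uncertain.

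In the degron libraries Kmt2b stood alone at the top, at 13.0 ± 0.05 CPM per kb (SD, n = 2). Kdm5b at 8.06 ± 0.59 and Kmt2d at 7.89 ± 0.01 overlapped, and no other neighbours in the order did. Kmt2a at 3.99 and Kdm1a at 3.53 changed places, and Setd1a at 2.91 and Setd1b at 2.48 stood above Kdm5a at 2.02 and Kmt2c at 1.40. Kmt2e remained the lowest of the 10 at 0.853. Per kb not shared with Gm49388, Setd1a would stand at 7.62 here, so its place in this order is uncertain too.

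The wider set of genes that work with these enzymes was described from a list of 42 subunits, related enzymes and readers, of which 38 were tested. Of these, 11 were higher, 8 were lower and 19 did not pass the edgeR test, and the median log2 fold change was 0.0048, beside the 20.3% and 19.8% of all genes called in each direction. With the length-adjusted scaling 12 were higher and 2 were lower, beside 17.9% and 9.89% of all genes. DESeq2 called 6 in each direction, beside 13.6% higher and 11.8% lower of the genes it tested. The subgroups differed in their counts, and the difference between subgroups was not tested.

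Of the 4 genes of the common core, 3 were higher. All 4 lie in the length class of 10 to 40 kb, in which 25.8% of tested genes were higher and 9.16% were lower. Dpy30, which helps the core bind and activate the enzymes, had 65.4 and 66.0 CPM in the untreated and 107 and 108 CPM in the degron libraries, with a log2 fold change of 0.70 ± 0.08 (SE) and an edgeR adjusted p of 2.96e-09. Wdr5, the scaffold subunit that contacts the catalytic enzymes, had 355 and 349 CPM in the untreated and 461 and 479 CPM in the degron libraries, with a log2 fold change of 0.42 ± 0.05 and an edgeR adjusted p of 5.18e-09. Ash2l rose by 0.23 ± 0.05 (SE, edgeR adjusted p of 0.00029), from 391 and 432 CPM to 483 and 480 CPM. The groups did not overlap in these 3 genes, and their calls held with the length-adjusted scaling, with length and GC removed and with DESeq2. Rbbp5, the fourth core gene, had 96.0 and 97.7 CPM in the untreated and 89.4 and 96.0 CPM in the degron libraries and a log2 fold change of -0.07 ± 0.08 (SE) with an edgeR adjusted p of 0.531.

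Among subunits of the Kmt2a and Kmt2b complexes 1 of 4 was higher, beside 20.3% of all tested genes. Hcfc1, the host cell factor shared by several chromatin complexes, rose by 0.25 ± 0.06 (SE) with an edgeR adjusted p of 0.0013, a call lost without untreated replicate 2 (0.0588), without degron replicate 1 (0.0855) and with length and GC removed (0.169). Men1, which encodes menin, stood at 0.15 ± 0.11 with an edgeR adjusted p of 0.303 and turned to -0.08 with the length-adjusted scaling. Psip1 and Hcfc2 were at -0.0015 and -0.06, turned to 0.02 and 0.03 with the length-adjusted scaling and did not pass the test under either. Menin, which this pair of complexes shares, missed the threshold under both scalings.

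Among subunits of the Kmt2c and Kmt2d complexes, Ncoa6, a nuclear receptor coactivator, was lower by -0.32 ± 0.07 (SE, edgeR adjusted p of 0.00033) and Kdm6a, the H3K27 demethylase UTX, by -0.25 ± 0.08 (edgeR adjusted p of 0.011). Both are long genes, and neither passed with the length-adjusted scaling, where Ncoa6 was at -0.10 and Kdm6a at 0.03. Without untreated replicate 2 or degron replicate 1 the adjusted p of Kdm6a was 0.0817 and 0.108 in edgeR, and with DESeq2 it was 0.170. Paxip1, which encodes PTIP, was higher by 0.14 ± 0.06 with an edgeR adjusted p of 0.0489, which became 0.296 without untreated replicate 1 and 0.321 without degron replicate 2, and 0.152 with DESeq2. Its length-adjusted value was 0.27. Pagr1a was listed at 0 in all 4 libraries, and it lies wholly within other genes on the same strand.

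Of the Setd1 subunits, Wdr82, which links the complex to RNA polymerase II, was higher by 0.34 ± 0.07 (SE, edgeR adjusted p of 0.00011), from 122 and 119 CPM to 150 and 155 CPM. That call held with the length-adjusted scaling, with length and GC removed and with DESeq2. Cxxc1 (CFP1), which binds unmethylated CpG, had 21.5 and 14.5 CPM in the untreated and 26.7 and 26.4 CPM in the degron libraries, with a log2 fold change of 0.55 ± 0.16 and an edgeR adjusted p of 0.0041. It lost that call without untreated replicate 2 (0.187), with the length-adjusted scaling (0.122) and with DESeq2 (0.105). Bod1l was at -0.11 and, with the length-adjusted scaling, at 0.05, and passed the test under neither.

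Of the 5 other tested enzymes of the mark, 1 passed the test under TMM scaling and 3 with the length-adjusted scaling. Of all tested genes 40.2% passed under TMM in either direction, and 17.9% were higher and 9.89% lower with the length-adjusted scaling. Smyd3, a SET and MYND domain protein whose activity on H3K4 is debated, had 1679 and 1614 CPM in the untreated and 1319 and 1290 CPM in the degron libraries. It was lower by -0.34 ± 0.04 (SE, edgeR adjusted p of 2.57e-09) under TMM scaling, and it is a gene of 566082 bases whose value turned to 0.11 with an adjusted p of 0.0467 with the length-adjusted scaling. Setd7, a monomethylase, was at 0.25 ± 0.11 with an edgeR adjusted p of 0.0630, and passed at 0.35 (0.0138) with the length-adjusted scaling and at 0.38 (0.0072) with length and GC removed. Prdm9, the meiotic trimethylase, was at the low level of 4.07 to 6.16 CPM. Of the other demethylases, Kdm5c was at 0.10 and Kdm1b at -0.12 with edgeR adjusted p of 0.245 and 0.255. Kdm5c passed with the length-adjusted scaling, at 0.18 (0.0471), but not with length and GC removed, at 0.07 (0.496), and Kdm5d was below the filter for testing.

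Of 6 tested partners of Kdm1a, 3 were lower and 0 were higher under TMM scaling, and the other 3, Rcor2, Rcor3 and Hmg20b, had log2 fold changes of -0.09, -0.14 and 0.27 and did not pass. The 3 lower genes are long: Zmym2 and Rcor1 span 76049 and 76551 bases, in the class where 32.5% of tested genes were lower, and Phf21a spans 271550 bases, in the class where 59.8% were. Phf21a (BHC80), which reads unmethylated H3K4, had 271 and 264 CPM in the untreated and 165 and 180 CPM in the degron libraries. The change of -0.63 ± 0.06 on the log2 scale (SE, adjusted p of 1.76e-11 by edgeR) shrank to -0.24 (0.0027) with the length-adjusted scaling and stayed past the threshold there. Rcor1 (CoREST) was at -0.27 (0.00052) and Zmym2 at -0.34 (0.00066) in edgeR, and neither passed with the length-adjusted scaling. Rcor2, a shorter paralog of Rcor1, did not pass under TMM (0.367) but was lower with the length-adjusted scaling, at -0.30 (0.0029), and with length and GC removed, at -0.33 (0.0012). Gse1 was listed at 0 in all 4 libraries and lies wholly within other genes on the same strand.

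Of 13 tested readers of the mark, 4 were higher and 2 were lower, beside 20.3% and 19.8% of all tested genes. The 2 lower genes are long. Taf3 spans 134045 bases, in the class where 59.8% of tested genes were lower, and Chd1 67644 bases, in the class where 32.5% were. Ing5, a subunit of histone acetyltransferase complexes whose PHD finger binds trimethylated H3K4, had 62.9 and 72.2 CPM in the untreated and 104 and 119 CPM in the degron libraries. The rise of 0.72 ± 0.09 on the log2 scale (SE, adjusted p of 6.09e-09 by edgeR) held under both other scalings and with DESeq2. Ing1, of the same family, was at 0.44 ± 0.13 with an edgeR adjusted p of 0.0044 but not past the threshold with the length-adjusted scaling (0.182) or DESeq2 (0.109). Taf3, the TFIID subunit that binds the mark at promoters, was lower by -0.40 ± 0.07 (edgeR adjusted p of 4.68e-06), and at -0.10 (0.278) with length removed. Phf2 was at 0.23 (0.0171) and Phf13 at 0.26 (0.0337), and Chd1, a remodeler with chromodomains that bind the mark, was at -0.18 (0.0408), all in edgeR. Phf2 lost its call without untreated replicate 2 (0.223) or degron replicate 1 (0.0679), Phf13 without untreated replicate 2 (0.153) or degron replicate 2 (0.172), and Chd1 without any one of the 4 libraries (0.0892 to 0.224). DESeq2 called none of them (0.137, 0.221 and 0.281). Length adjustment put Phf2 at 0.43 (4.81e-05), Phf13 at 0.03 (0.847) and Chd1 at 0.0048 (0.970) in edgeR. Bptf, the largest subunit of the NURF remodeler, was at 0.01 (0.885) under TMM and was called higher with the length-adjusted scaling, at 0.26 (0.00018), and with length and GC removed, at 0.24 (0.00086). Ing4 was listed at 0, and 99.4% of it is covered on the same strand.

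**Figure D5:**
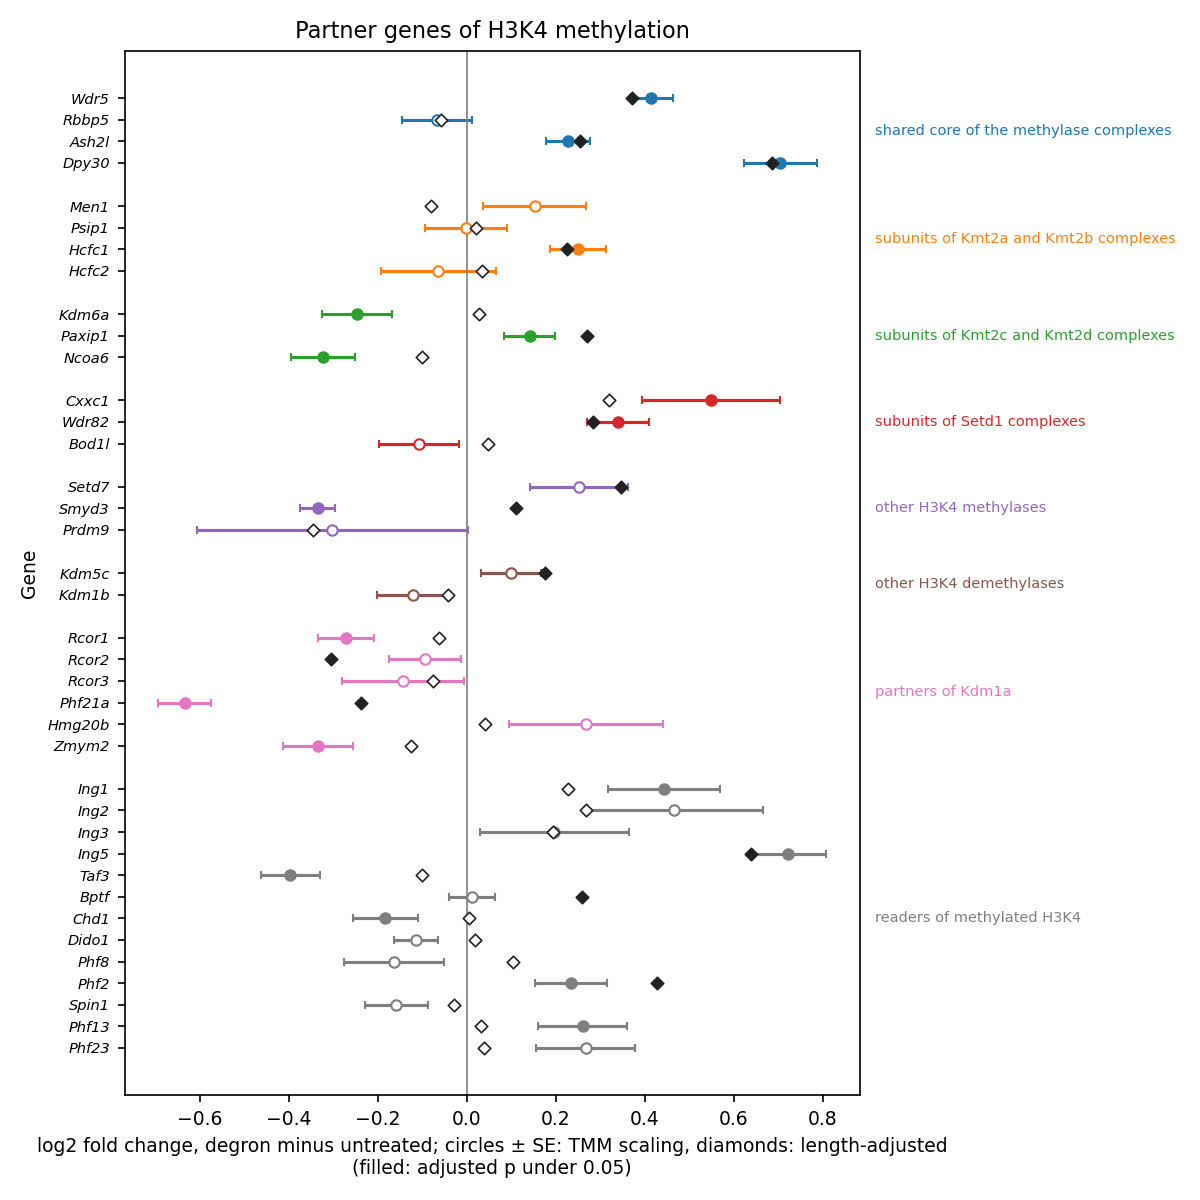
Log2 fold change (degron minus untreated) of the 38 tested partner genes by role, with circles ± SE for TMM scaling and diamonds for the length-adjusted scaling, filled where the adjusted p was under 0.05. Dpy30, Wdr5, Ash2l, Hcfc1, Paxip1, Wdr82, Ing5 and Phf2 are filled above 0 in both, Phf21a is filled below 0 in both, and Smyd3 turns from -0.34 to 0.11.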

How the data were processed

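Raw counts per gene of 4 ChAR-seq libraries, deposited by the authors with no scaling, were analyzed. Per the labels and methods, the authors trimmed reads with cutadapt 2.6, mapped them to mm10 and dm6 and counted uniquely mapped reads without PCR duplicates with featureCounts 1.6.3 from 300 bases after the start to the end of each gene. The methods name bowtie2 and the labels STAR 2.7.6a for mapping. The strand setting and annotation release of the ChAR-seq counting are not given in the sources used here. No spike-in scaling was applied, and a shift shared by every gene would not be seen.

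Of 36918 identifiers, 36770 matched GENCODE M21, which gave symbols, positions, length and cover by other genes. Of 585 protein-coding genes covered over at least 99% of their length on the same strand, 88.5% had no count, against 20.2% of 18621 with no such cover. Genes were kept with filterByExpr (minimum count 10, minimum total 15). Libraries were scaled with TMM and groups compared by edgeR's quasi-likelihood test (two-sided, robust, group as the only term), adjusted over 14361 genes at 0.05. CPM are relative to the summed counts of tested genes times the TMM factor. Each SE is the absolute log2 fold change divided by the square root of F. Ratios within libraries were compared by exact permutation over the 4 libraries. The fit was tested on simulated data. R 4.3.3 was used with DESeq2 1.42.0, edgeR 4.0.16 and limma 3.58.1.

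The 10 genes and the partner and marker lists were chosen with earlier results of these data known. All 10 genes are named, with up to 4 partners per role with the smallest adjusted p and Men1, Bod1l and Rbbp5 as defining subunits. 1 listed partner gene was left out of the list and of its counts, and is not reported here. Rcor2, Rcor3, Phf13, Chd1 and Bptf fall outside this rule and were named after their values were seen. Pagr1a, Kdm5d, Gse1 and Ing4, which were not tested, also fall outside it and are named as such. Counts of both replicates of a group differed by more than sampling noise, with a chi-square of 1.30 (untreated) and 1.39 (degron) per degree of freedom, and they count as separate samples. Alternatives changed the test (DESeq2's Wald test or limma voom), the scaling (size factors of DESeq2 or total counts), the filter (none, or a mean of 50 counts or more), or the design (a replicate block), or used length-adjusted scaling (a loess curve with a span of 0.3 on log10 gene length), only protein-coding genes, 3 of the 4 libraries or a minimum log2 fold change of 0.5. Length- and GC-adjusted scaling and length-adjusted scaling without each library were added after seeing the data.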

Additional observations from a re-analysis of the deposited data

How the results depend on the processing

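Over 19 alternatives, Kmt2b (0.50 to 0.78), Kmt2d (0.40 to 0.71), Setd1a (0.45 to 0.64) and Setd1b (0.55 to 0.89) kept their direction and their call in each. Over all genes, DESeq2 called 1461 higher and 1270 lower, length-adjusted scaling called 1419 lower, length- and GC-adjusted scaling 1226 lower, a minimum log2 fold change of 0.5 left 1092 higher and 1183 lower, and leaving out 1 library, with or without length adjustment, gave 2007 to 2505 higher and 873 to 2367 lower. Of the 10 genes, 2 in place of 3 were lower with total counts, without a filter and with DESeq2, 7 were higher and 1 lower with length-adjusted scaling, 7 and 0 with length and GC removed, 0 were lower at the minimum of 0.5, and 4 to 7 were higher and 0 to 3 lower when 1 library was left out. Whether the replicate numbers pair the libraries is not known, and the main fit did not pair them. The labels give no shared culture or day, and the deviations of both replicates 1 had a correlation of 0.0239 over genes. With a replicate block 3119 genes were higher and 3055 lower, and no call among the 10 genes changed. With the block and length adjustment together 8 of the 10 genes were higher and 1 was lower. Over all genes that fit called 2770 higher and 1556 lower. In that fit Kmt2c stood at 0.12 with an edgeR adjusted p of 0.0494. The ratio of methylase to demethylase counts differed by 0.33 in place of 0.22 as a mean of log2 values, which weights each gene alike, and by 0.16 to 0.29 when 1 library was left out. Signs turned as follows. Kmt2c was at 0.12 with length adjustment and 0.13 with GC as well, and ran from -0.30 to 0.17 when 1 library was left out under either scaling. Kdm5a was at 0.0038 without a filter, at 0.19 with length adjustment, with or without the block, and at 0.27 with GC as well, and ran from -0.071 to 0.25 with 1 library left out. Kdm5b was at 0.012 with total counts, 0.023 without a filter, 0.0037 with DESeq2, 0.20 with length adjustment, 0.19 with the block added and 0.21 with GC as well, and ran from -0.080 to 0.28 with 1 library left out. Kmt2a ran from -0.0075 to 0.26 and Kdm1a from -0.20 to 0.012 in the same way. Among the partners named, values with length adjustment, with the block added and with GC as well were -0.081, -0.086 and -0.098 for Men1, 0.028, 0.029 and 0.12 for Kdm6a, 0.11, 0.11 and 0.12 for Smyd3, 0.035, 0.031 and 0.086 for Hcfc2, 0.047, 0.047 and 0.10 for Bod1l, 0.020, 0.021 and 0.16 for Psip1 and 0.0048, 0.0055 and 0.092 for Chd1. With GC as well, Zmym2 was at 0.019, Kdm1b at 0.053 and Rcor3 at 0.045. Psip1 was also at 0.00025 with DESeq2's size factors, 0.023 with total counts, 0.034 without a filter and 0.020 with DESeq2's test, and Bptf at -0.0058 with a mean of 50 counts or more. With 1 library left out, Psip1 ran from -0.094 to 0.12, Hcfc2 from -0.15 to 0.054, Prdm9 from -0.52 to 0.0028 and Bptf from -0.015 to 0.054. The length and GC offsets were fitted on these same libraries, and why the signs turned was not tested further. With 2 libraries per group, small differences such as that of Kdm1a were at the limit of what could be called.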
